A study of Mus musculus with 20 samples.

Results

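The genes described here encode the subunits of the ionotropic neurotransmitter receptors, the ion channels that open when glutamate, GABA, glycine or acetylcholine binds. Members were taken by symbol: every protein-coding gene of the files whose name starts with Gria, Grik, Grin1, Grin2, Grin3, Grid, Gabr, Glra, Glrb or Chrn. The rule returned 59 of 22736 protein-coding genes, in files that list 39174 genes in all. One of them encodes a scaffold protein and no subunit, and it was set apart. The other 58 comprise 18 glutamate receptor genes (4 AMPA, 5 kainate, 7 NMDA and 2 delta), 19 GABA-A, 5 glycine and 16 nicotinic acetylcholine receptor genes, of which 11 are neuronal and 5 belong to the muscle receptor.

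The study measured RNA in motoneurons that were enriched by panning on the p75 receptor from the spinal cords of CD-1 mouse embryos at mid-gestation and grown for a week in microfluidic chambers, where axons cross into a compartment of their own. Control motoneurons carried an empty lentiviral vector (titled GFP), and Tdp-43 knockdown motoneurons a lentivirus with 1 shRNA against the transcript of Tdp-43, an RNA-binding protein with many roles in splicing and RNA transport. There were 4 control and 6 knockdown libraries from the somatodendritic compartment, which holds cell bodies and dendrites, and the same numbers from the axonal compartment, 20 in all. The labels do not say that these libraries came from separate cultures, so that p-values measure only the spread between libraries, which may be technical.

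As background, AMPA receptors (Gria1 to Gria4) carry most fast excitation, kainate receptors (Grik1 to Grik5) modulate it, and NMDA receptors pair the obligatory Grin1 with Grin2 or Grin3 subunits and pass calcium. Delta receptors, such as that of Grid1, act mainly as synaptic organisers. GABA-A receptors are mostly built of alpha, beta and gamma subunits and glycine receptors of alpha subunits with Glrb. These inhibitory channels pass chloride and, in the mature spinal cord, restrain motoneurons through synapses from interneurons. At collaterals of their axons motoneurons release acetylcholine onto neuronal nicotinic receptors of Renshaw interneurons, whereas the receptor of Chrna1, Chrnb1, Chrnd and Chrng or Chrne sits in the muscle fibre that they innervate.

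Levels are given in FPKM (fragments per length of transcript and depth of the library), so that they can be set side by side between genes. The files hold no read totals. Each FPKM comes with a 95% interval, whose width gave an implied number of fragments, and over 680 well-covered genes the depth relative to the deepest library was 0.103 to 1. The shallowest was axonal knockdown library 5, in which 14 of the 58 genes were above 0, against 30 to 40 in the 10 somatodendritic libraries. A gene at 0 in these files may be a failed estimate and is called listed at 0. The motoneuron markers Chat, Mnx1 and Isl2 were listed at 0 in all 20 libraries, and the 10 motoneuron markers found in the files summed to 12.8 to 20.2 FPKM in somatodendritic control libraries. There 11 interneuron markers, among them the GABA- and glycine-synthesis and transport genes Gad1, Gad2, Slc32a1 and Slc6a5, summed to 176 to 192 FPKM, and 8 astrocyte or radial glia markers to 412 to 589 FPKM. In such bulk RNA fewer cells of a type and less RNA per cell cannot be told apart. Tardbp, which encodes Tdp-43, was between 19.0 and 30.8 FPKM in somatodendritic control libraries and between 0 and 8.54 FPKM in all 6 somatodendritic knockdown libraries, 14.7% of control (exact two-sided permutation test, p = 0.00952). In axonal libraries it was 13.4 to 32.3 FPKM in control and 1.21 to 33.2 FPKM in knockdown, with 4 of 6 knockdown libraries below every control library (52.9% of control, exact two-sided permutation test, p = 0.143). The library labelled axonal knockdown 1 was the one at 33.2 FPKM, above every axonal control library, and without it the level was 36.5% of control (exact p = 0.0317). That library was singled out by its Tardbp value, so this p-value is a description and supports no difference. After median-of-ratios scaling it was 35.1% with all libraries (exact p = 0.0190), and over 11 alternatives the exact p lay between 0.0190 and 0.286.

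Summed over the 58 genes, somatodendritic libraries held 536 to 629 FPKM in control and 526 to 669 FPKM in knockdown. Axonal control libraries held 154 to 252 FPKM, less than every somatodendritic library. The 6 axonal knockdown libraries did not behave as one group. Libraries 3 and 4 held 636 and 549 FPKM, within the somatodendritic range, whereas libraries 1, 2, 5 and 6 held 262, 295, 166 and 264 FPKM. In the same libraries 3 and 4 the summed interneuron markers were 205 and 188 FPKM, in the somatodendritic range, against 5.35 to 109 FPKM in the other 4. The main counts that rest on libraries 3 and 4 are given with and without them. Since these libraries were singled out by receptor RNA itself, values without them are a description and support no difference.

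**Figure D1:**
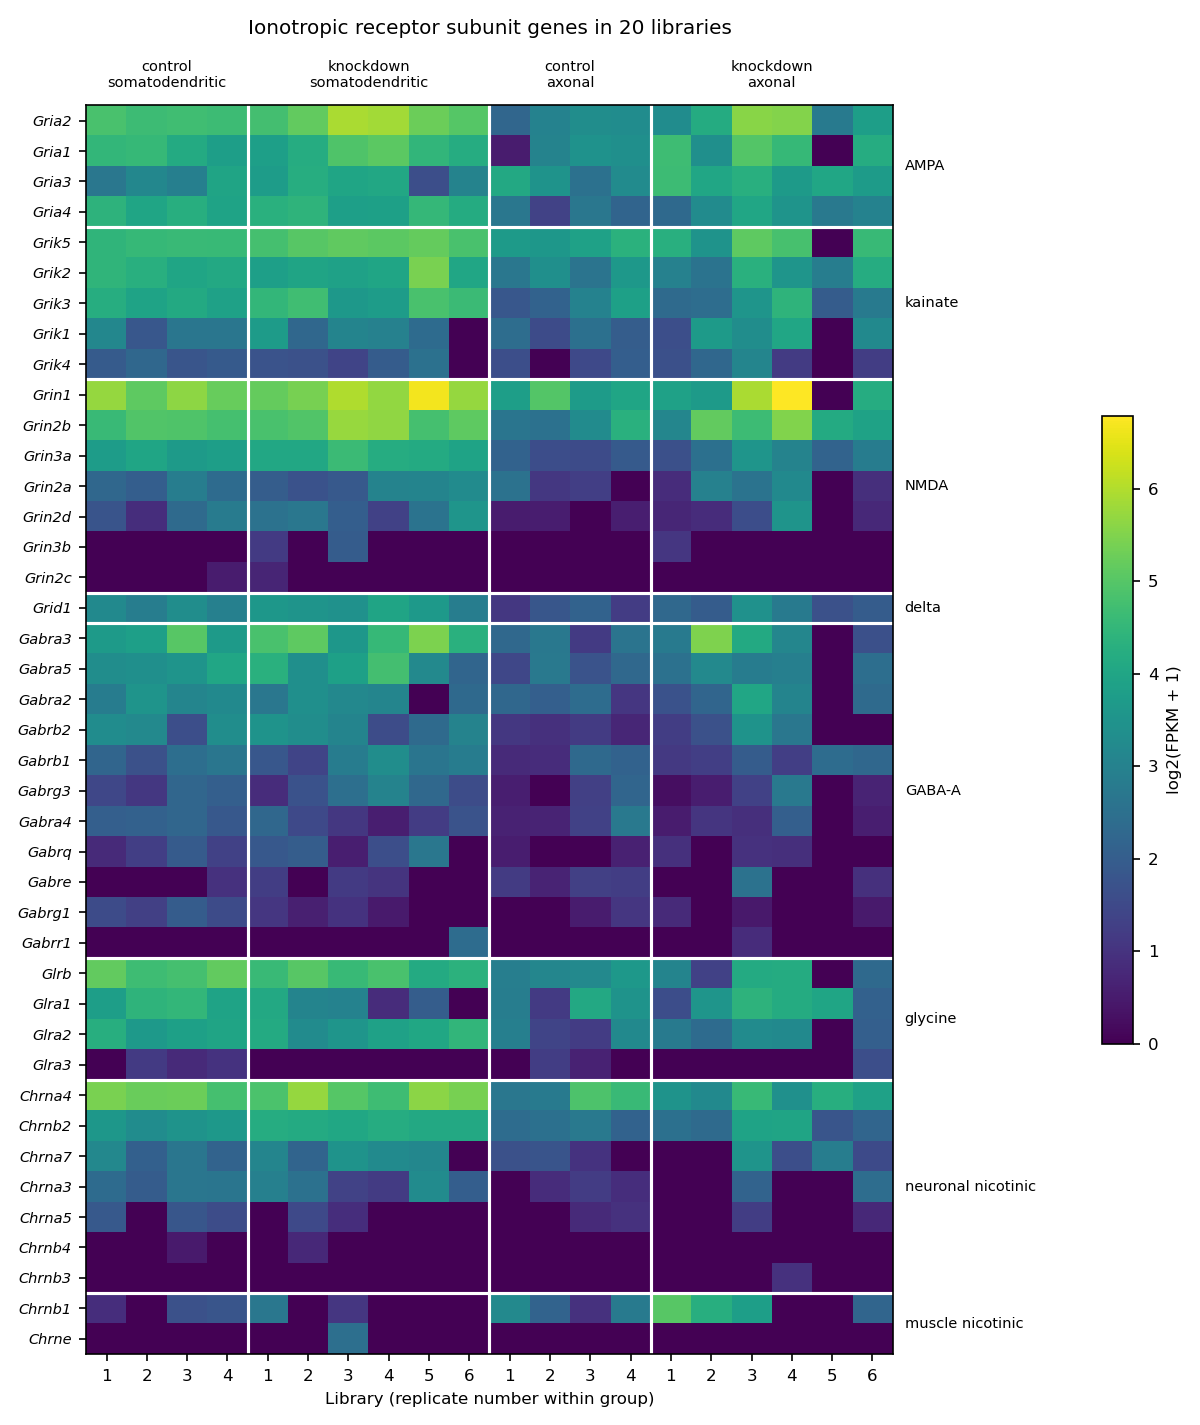
Deposited FPKM of 41 subunit genes, as log2(FPKM + 1) on the colour scale, with genes in rows by receptor class and the 20 libraries in columns by group. Axonal control libraries are darker than somatodendritic ones in most rows, and axonal knockdown libraries 3 and 4 resemble the somatodendritic libraries more than their neighbours do.

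Of the 58 genes, 12 were above 0 in all 20 libraries, 34 had a mean of at least 1 FPKM and 17 of at least 10 FPKM. All AMPA, kainate and delta genes reached a mean of 1 FPKM, as did 5 of 7 NMDA, 10 of 19 GABA-A, 3 of 5 glycine, 4 of 11 neuronal nicotinic and 1 of 5 muscle nicotinic genes. A further 11 had a lower mean and were above 0 in at least 1 library. Among these were Grin2c, Grin3b, Gabre, Gabrg1, Gabrr1, Glra3, Chrna5, Chrnb3, Chrnb4 and Chrne. The remaining 13 were listed at 0 in all 20 libraries, namely Gabra6, Gabrd, Gabrp, Gabrr2, Gabrr3, Glra4, Chrna2, Chrna6, Chrna9, Chrna10 and the muscle genes Chrna1, Chrnd and Chrng.

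Among GABA-A receptor genes, Gabra3, the alpha3 subunit, was at 11.98, 13.3, 31.9 and 12 FPKM in somatodendritic and at 3.91, 5.64, 1.22 and 5.13 FPKM in axonal control libraries. Gabra5, an alpha subunit mostly found outside synapses, was at 9.10, 9.40, 10.5 and 15.2 FPKM and at 1.74, 5.71, 2.32 and 3.94 FPKM in the same groups. Gabrb2 was at 8.89, 8.10, 2.09 and 9.11 FPKM in somatodendritic control libraries, of which library 3 stood below the others, and at 1.16, 0.932, 1.27 and 0.656 FPKM in axonal ones. Gabra2, Gabra4, Gabrb1, Gabrg3 and Gabrq had lower means of 1.20 to 5.60 FPKM over the 20 libraries.

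Among glycine receptor genes, Glrb was highest in somatodendritic control libraries, at 34.6, 24.7, 26.6 and 34.5 FPKM. This beta subunit, which tethers the receptor to gephyrin, was at 6.52, 7.63, 8.20 and 11.2 FPKM in axonal control libraries. Glra1, the alpha subunit of mature spinal glycine receptors, was at 13.1, 20.2, 21.5 and 14.5 FPKM and at 6.41, 1.24, 16.2 and 10.2 FPKM. Glra2, the alpha subunit typical of embryonic neurons, was at 18.3, 11.5, 13.7 and 14.5 FPKM and at 6.58, 1.60, 1.30 and 8.30 FPKM. In somatodendritic control libraries both alpha subunits thus spanned overlapping ranges and lay below every value of Glrb. Axonal control libraries had a mean of 8.51 FPKM for Glra1 (SD 6.30) and of 8.39 FPKM for Glrb (SD 2.01).

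NMDA receptor genes were led by the obligatory subunit Grin1, with 52.0, 33.5, 49.1 and 35.8 FPKM in somatodendritic and 12.9, 30.6, 12.2 and 14.9 FPKM in axonal control libraries. Grin2b, the Grin2 subunit of immature neurons, followed with 23.3, 29.7, 29.6 and 26.6 FPKM and with 5.21, 4.79, 8.76 and 18.9 FPKM. Grin2a, which takes its place at many mature synapses, had 3.10 to 6.31 FPKM in somatodendritic control libraries, below every Grin2b value there. Grin3a, a subunit that lowers calcium entry, was at 12.4, 15.02, 12.1 and 13.01 FPKM in somatodendritic and at 3.41, 2.04, 1.93 and 2.79 FPKM in axonal control libraries. Grin2d was at 2.39, 0.835, 4.09 and 6.07 FPKM and at 0.424, 0.465, 0 and 0.482 FPKM in the same groups. Exons of Grin1 share 1307 of 9700 bases with the antisense gene Grin1os, and the sources used here do not state whether counting used the strand.

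Of the 4 AMPA receptor genes Gria2 was the highest in every somatodendritic control library. Gria2, the subunit that makes the channel nearly impermeable to calcium once its RNA is edited, was at 28.0, 24.2, 25.1 and 24.1 FPKM there and at 3.70, 7.01, 9.004 and 8.79 FPKM in axonal control libraries. Gria1 was at 21.7, 22.6, 16.7 and 13.02 FPKM and at 0.430, 7.23, 10.0 and 9.43 FPKM. Gria4 was at 19.9, 15, 18.3 and 14.4 FPKM and at 5.51, 1.54, 5.51 and 3.54 FPKM. Gria3 differed from these, with 5.48, 7.79, 6.65 and 14.5 FPKM in somatodendritic and 16.1, 10.2, 4.76 and 8.76 FPKM in axonal control libraries, so that its compartments overlapped. In axonal control libraries Gria3 had the highest mean of the 4 genes, 9.96 FPKM against 7.13 for Gria2, a difference of less than the SD of Gria3 (4.68 FPKM) but not of Gria2 (2.45 FPKM), and it was not tested.

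Kainate receptor RNA came mainly from Grik5, a high-affinity subunit that needs a low-affinity partner, and from the partners Grik2 and Grik3. Grik5 was at 20.8, 22.5, 23.1 and 22.9 FPKM in somatodendritic and 12.01, 11.2, 13.9 and 19.1 FPKM in axonal control libraries. Grik2 was at 20.6, 18.4, 14.9 and 16.1 FPKM and at 5.52, 9.496, 5.09 and 11.4 FPKM, and Grik3 at 17.8, 14.4, 16.5 and 13.7 FPKM and at 2.57, 3.38, 7.09 and 13.4 FPKM. Of the delta receptors, Grid1 was at 8.35, 6.42, 9.04 and 6.71 FPKM in somatodendritic and at 1.15, 2.52, 3.42 and 1.31 FPKM in axonal control libraries, which did not overlap.

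Neuronal nicotinic RNA was dominated by Chrna4 and Chrnb2, which together form the most common nicotinic receptor of the brain. Chrna4 was at 41.7, 37.1, 37.3 and 26.7 FPKM in somatodendritic control libraries, and its axonal values of 5.42, 5.94, 28.5 and 23.2 FPKM formed a low and a high pair. Chrnb2 was at 11.0, 8.84, 10.3 and 11.2 FPKM and at 4.28, 4.69, 5.72 and 3.40 FPKM. In GENCODE M21, 1365 of its 8380 exonic bases overlap Adar on the opposite strand. Chrnb2 starts at position 89746195 there and at 89753448 in the deposited values. Whether the shared bases lie in the counted gene was not tested. Chrna7, which forms receptors by itself, and Chrna3, a subunit of autonomic ganglia, were lower. Chrna7 was at 7.99, 3.25, 5.31 and 3.50 FPKM in somatodendritic and at 2.2, 2.41, 0.982 and 0 FPKM in axonal control libraries. Chrna3 was at 4.16, 2.90, 5.33 and 5.28 FPKM and at 0, 0.808, 1.31 and 0.837 FPKM, and as deposited the compartments overlapped in neither gene. Of the muscle receptor genes only Chrnb1 was measured in more than 1 library, at 0.862, 0, 2.23 and 2.47 FPKM in somatodendritic and 8.12, 3.51, 0.953 and 5.93 FPKM in axonal control libraries. Of 12 skeletal muscle markers 7, among them Myod1, Myog, Myf5, Myf6 and Ckm, were listed at 0 in all 20 libraries. The 12 summed to 0.0681 to 2.29 FPKM in somatodendritic and 0.913 to 10.1 FPKM in axonal control libraries, and their part in the Chrnb1 level was not tested.

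The first comparison asked which subunit RNAs differed between the axonal and the somatodendritic compartment of control motoneurons. Libraries were scaled to each other by the median of ratios, set to log2(FPKM + 1), and every gene that averaged 1 FPKM or more in the 8 libraries was tested with limma. Of 35 subunit genes tested, 33 were lower in axons and 6 fell at an adjusted p under 0.05, among them AMPA, NMDA and glycine receptor genes. No subunit gene was higher at that threshold. Over all 13760 genes tested, 6.90% passed and 2.97% were lower and passed, and 53.0% were lower in axons. The median change was -0.94 for the 35 genes and -0.06 for all genes tested, on the log2(FPKM + 1) scale, which understates changes of low genes.

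Described here are 4 of these genes. On the log2 scale Grin3a fell by 1.57 ± 0.33 (SE, n = 4 and 4; limma, adjusted p = 0.0195), Gria4 fell by 1.45 ± 0.39 (limma, adjusted p = 0.0495), Gria2 fell by 1.27 ± 0.32 (limma, adjusted p = 0.0383) and Glrb fell by 1.24 ± 0.27 (limma, adjusted p = 0.0231). In each of these 4 genes all 4 axonal control libraries were below all 4 somatodendritic ones, as they were in 14 of the 35 genes, against 8.54% of all genes tested that were apart and lower. Without any one of somatodendritic control libraries 1, 2, 3 and 4 the count of genes that passed was 2 and held none of these 4. Of all genes 2.65% to 3.84% then passed. Without axonal control library 1, 2, 3 or 4 the count was 4, 4, 6 or 7, where 4.34%, 4.55%, 6.85% or 11.3% of all genes passed. On FPKM as deposited, where the median of all tested genes itself was -0.48, 16 subunit genes and 14.9% of all genes passed, and 33 of the 35 were lower.

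Counting by an unadjusted p under 0.05 added 10 genes, which made 16 of 35 in all and 15 of 35 that were lower, where 22.9% of all genes tested were under that limit and 11.8% were also lower. Lower in axons among the 10 were Gabra3, Gabra5, Gabrb2, Grin1, Grin2b, Grin2d, Grid1, Glra2 and Chrna3, with log2 changes between -1.50 for Gabrb2 and -0.79 for Grin1. The exception was Chrnb1, with a change of 1.5 ± 0.59 (limma, adjusted p = 0.160). Axonal control values rested on few implied fragments per library, 0.0180 to 0.952 for Chrnb1, 0.00765 to 0.0459 for Gabrb2 and 0 to 0.0138 for Grin2d. Gria3 was the only other gene above 0, at 0.64 ± 0.41 (limma, adjusted p = 0.383). Both stayed above 0 under every alternative tried. None of the 5 kainate genes reached an unadjusted p under 0.05 in limma. Their median change was -0.35, from -0.87 for Grik3 to -0.03 for Grik1, with Grik5 at -0.16 ± 0.26 (limma, adjusted p = 0.760). On FPKM as deposited Grik2 passed (-1.12, limma, adjusted p = 0.0412). Whether classes differed was not tested.

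In deposited levels the classes were ordered as follows. Axonal control libraries held 22.7% of the somatodendritic GABA-A sum (SD 6.10 over axonal libraries, n = 4), 34.9% of the glycine sum (SD 12.6), 35.1% of the NMDA sum (SD 8.11), 39.8% of the neuronal nicotinic sum (SD 21.1), 40.2% of the AMPA sum (SD 3.45), 41.3% of the delta sum (SD 19.2) and 53.0% of the kainate sum (SD 17.5). GABA-A was the lowest class in control, and no neighbours in this order differed beyond their spread. Scaled over all 20 libraries the percentages were 34.1 for GABA-A, 52.3 for NMDA, 52.5 for glycine, 60.5 for AMPA, 62.5 for delta and 79.2 for kainate genes. In knockdown motoneurons the order was another one, with 40.6% of the neuronal nicotinic sum (SD 21.9 over axonal libraries, n = 6), 49.95% of the delta sum (SD 27.7), 54.8% of the GABA-A sum (SD 29.7), 55.8% of the glycine sum (SD 34.6), 58.4% of the NMDA sum (SD 50.1), 61.2% of the kainate sum (SD 34.2) and 70.7% of the AMPA sum (SD 33.3). These classes all lay within the spread of their neighbours, and the order rested on libraries 3 and 4. Without them the values were 29.8% for NMDA (SD 14.2, n = 4), 30.2% for neuronal nicotinic, 33.5% for glycine, 38.4% for delta, 38.5% for GABA-A, 42.8% for kainate and 51.3% for AMPA genes. As a share of all receptor RNA, GABA-A genes made up 37.6% to 40.3% in somatodendritic and 21.7% to 27.5% in axonal control libraries, and glutamate receptor genes 39.4% to 41.9% and 43.1% to 55.5%.

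**Figure D2:**
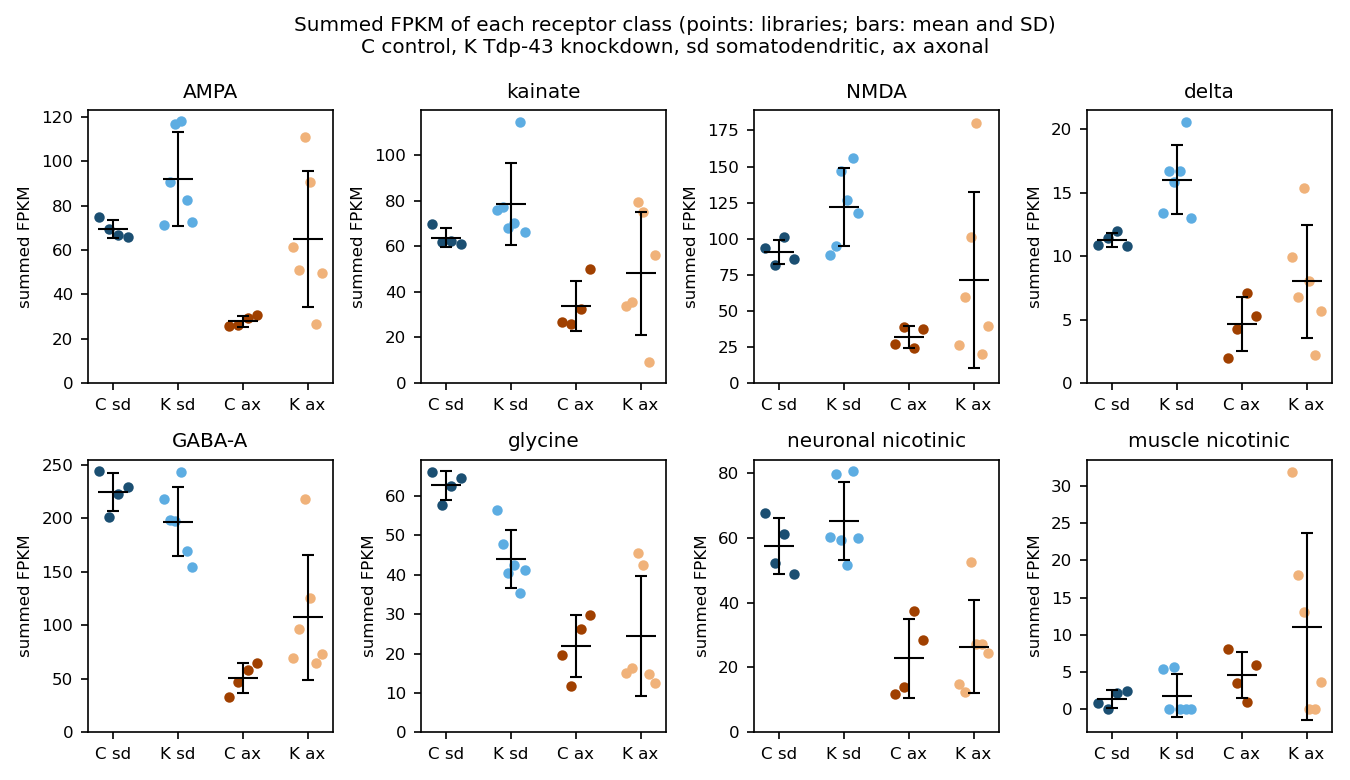
Summed deposited FPKM of each receptor class on the vertical axis, 1 point for each library with the mean and SD of its group, for control and Tdp-43 knockdown in both compartments. Axonal control libraries lie below all somatodendritic control libraries in every class but the muscle nicotinic one, and axonal knockdown libraries spread widely, with an AMPA sum of 26.7 to 111 FPKM.

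Markers of other cells moved with this comparison. Of the interneuron markers, 8 were tested, all 8 were lower in axons and 5 passed, with Slc6a5, the neuronal glycine transporter, at a log2 change of -1.70 (limma, adjusted p = 0.00503). Their median change, -1.40, was below that of the receptor genes. Fibroblast markers summed to 11.9 to 56.1 FPKM in axonal and 1.94 to 12.5 FPKM in somatodendritic control libraries, and astrocyte or radial glia markers to 537 to 855 and 412 to 589 FPKM. Their part in the receptor differences was not tested.

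**Figure D3:**
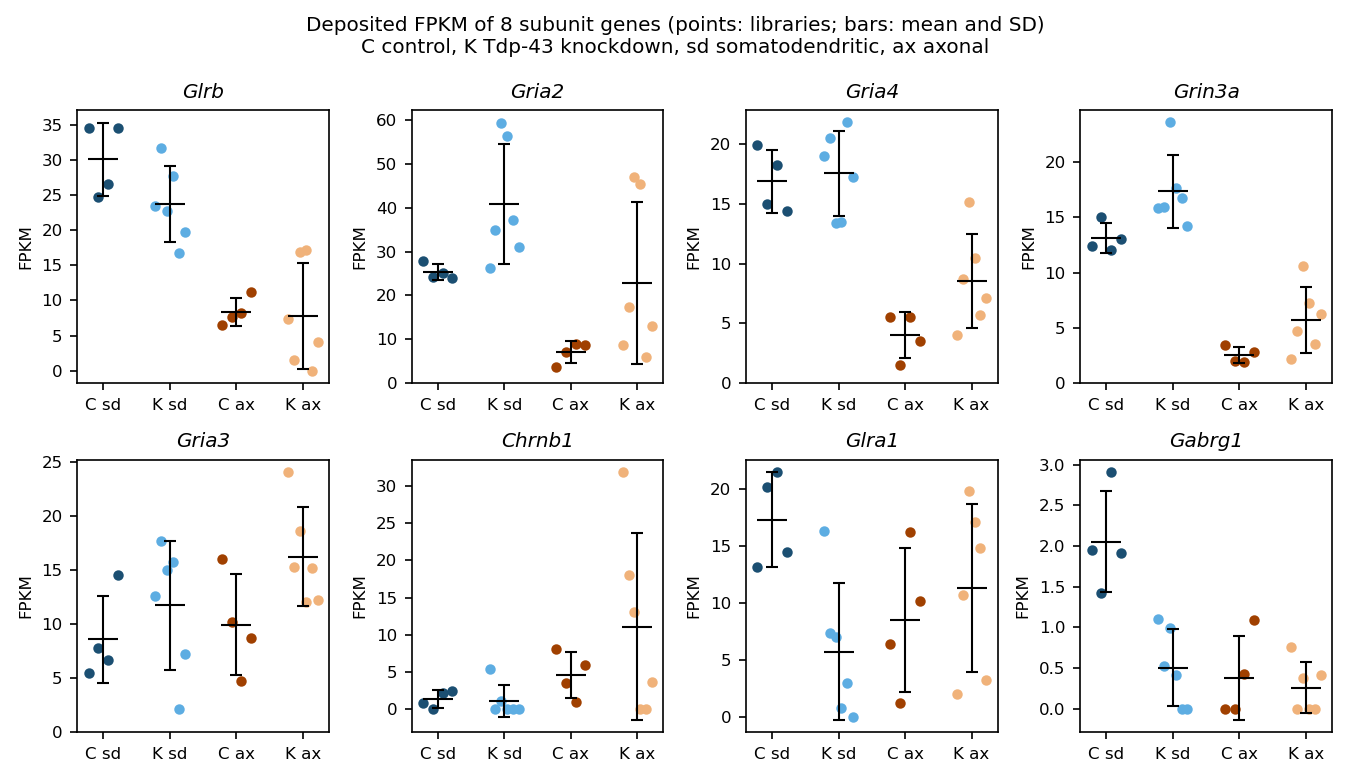
Deposited FPKM of 8 subunit genes on the vertical axis, 1 point for each library with the mean and SD of its group (C control, K knockdown, sd somatodendritic, ax axonal). Glrb, Gria2, Gria4 and Grin3a are lower in all 4 axonal than in all 4 somatodendritic control libraries, whereas Chrnb1 and Gria3 overlap, and Glra1 and Gabrg1 are low in most somatodendritic knockdown libraries.

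In Tdp-43 knockdown motoneurons, 30 of 35 genes were lower in axons, where 53.2% of all genes were, with a median change of -0.89 against -0.07 for all 14021 genes tested. All 10 interneuron markers tested were lower too, with a median change of -1.05 and 0 past an adjusted p under 0.05 in limma. Their part in the receptor differences was not tested. In limma no subunit gene passed at an adjusted p under 0.05 and 11 had an unadjusted p under 0.05, 10 of them lower. Of all genes 1.28% passed, 16.6% had an unadjusted p under 0.05 and 8.73% were also lower. Without axonal libraries 3 and 4, a choice made after seeing their receptor sums, the counts were 6 and 18 of 35 genes, with 7.55% and 23.3% of all genes. Without library 4 alone 2 passed, Grik3 and Glrb, with 3.13% of all genes. With all libraries Glrb was at -1.91 ± 0.60 (limma, adjusted p = 0.120, n = 6 and 6) and Chrna4 at -1.17 ± 0.33 (limma, adjusted p = 0.0893).

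After scaling, Grin3a was the only subunit gene whose compartments did not overlap in knockdown motoneurons, and as deposited Chrna4 and Chrnb2 were apart too. Grin3a had 14.2 to 23.6 FPKM in somatodendritic and 2.17 to 10.6 FPKM in axonal libraries (log2 change -1.32 ± 0.39, limma, adjusted p = 0.0999), where 2.47% of all genes were apart after scaling. As deposited Chrna4 was at 24.5 to 52.1 and 8.29 to 23.0 FPKM, and Chrnb2 at 15.5 to 17.6 and 2.47 to 14.6 FPKM. Chrnb1 was again above 0, at 1.99 ± 0.87 (limma, adjusted p = 0.262), with 31.9, 18.0, 13.1, 0, 0 and 3.65 FPKM in axonal knockdown libraries 1 to 6. The muscle marker Myh8 was at 17.8 FPKM at most in axonal knockdown libraries, and summed muscle markers were 19.3, 0.835, 4.37, 0.107, 0 and 0.320 FPKM in libraries 1 to 6. Library 1 was highest in both, and library 2 held 18.0 FPKM of Chrnb1 and 0.835 FPKM of the markers. In axonal control libraries the highest marker sum was in library 2 and the highest Chrnb1 in library 1. Chrnb1 in axonal knockdown libraries rested on 0 to 9.02 implied fragments (median 0.565), and the part of muscle RNA in its level was not tested. Gria3 was at 0.83 ± 0.44 (limma, adjusted p = 0.358). Glra1 was at 1.32 ± 0.70 (limma, adjusted p = 0.364), the only glycine gene above 0.

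**Figure D4:**
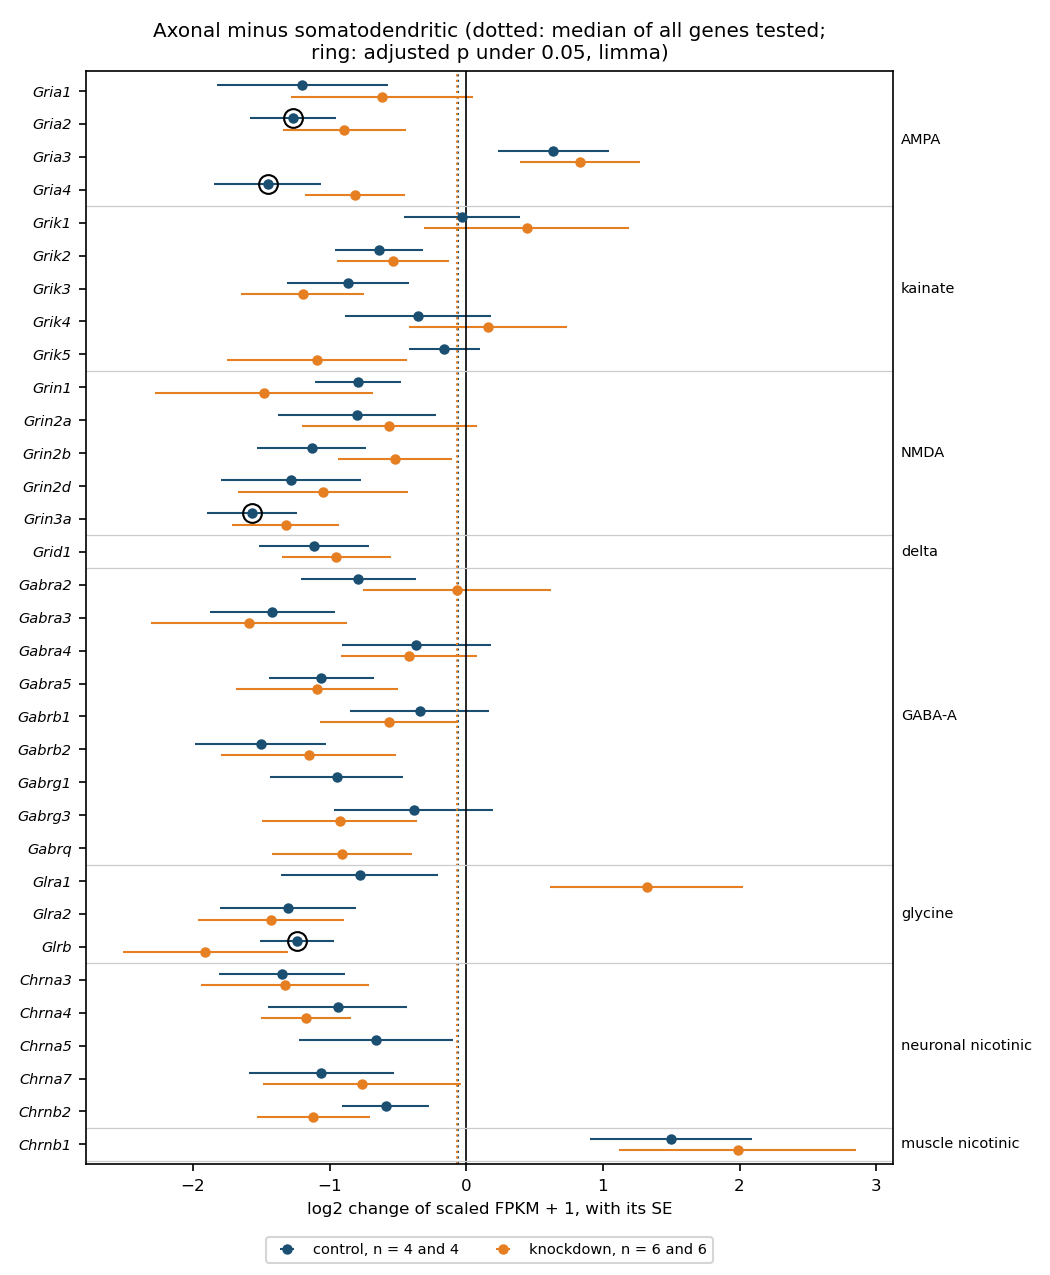
Axonal minus somatodendritic log2 change of scaled FPKM + 1 with its SE on the horizontal axis, for the tested subunit genes described here in control (blue, n = 4 and 4) and Tdp-43 knockdown (orange, n = 6 and 6) motoneurons, with the median of all genes tested as a dotted line. All but Gria3 and Chrnb1 are below 0 in control, and the 4 ringed genes passed at an adjusted p under 0.05.

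The next comparison asked what Tdp-43 knockdown did to these RNAs in the somatodendritic compartment. In limma none of 36 subunit genes tested passed at an adjusted p under 0.05, where 0.974% of all 13762 genes did, and none passed under any of the alternatives. An unadjusted p under 0.05 was reached by 4 genes, all lower in knockdown, against 13.8% of all genes tested at that limit and 9.22% that were also lower, so that the share among subunit genes was near that of all genes. They included the glycine receptor genes Glra1 and Glrb and the GABA-A gene Gabrg1. Of 15 GABA-A and glycine genes tested 12 were lower in knockdown, and of 16 glutamate receptor genes 6, where 59.3% of all genes were lower. With FPKM as deposited 14 of the 36 genes rather than 22 were lower.

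Glra1 was the gene furthest from 0. It was at 13.1 to 21.5 FPKM in control and at 16.3, 7.33, 7.01, 0.832, 3.02 and 0 FPKM in knockdown libraries 1 to 6 of the somatodendritic compartment. Knockdown library 1 lay within the control range and the other 5 below it. The log2 change was -2.17 ± 0.66 (SE, n = 6 and 4; limma, adjusted p = 0.149), and over 19 alternatives it ranged from -2.97 to -1.34 with adjusted p between 0.0716 and 0.332. Its partner Glrb was at 16.7 to 31.7 FPKM, median 23.1, against 24.7 to 34.6 FPKM in control, with a change of -0.55 ± 0.22 (limma, adjusted p = 0.284). Glra2 was at 8.69 to 21.4 FPKM and spanned the control values (-0.24 ± 0.28, limma, adjusted p = 0.762).

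Gabrg1, a gamma subunit of the GABA-A receptor, was at 1.95, 1.43, 2.91 and 1.92 FPKM in control and at 0 to 1.10 FPKM in knockdown libraries, with 3 to 9.59 against 0 to 1.99 implied fragments. Its groups did not overlap and its change was -1.16 ± 0.41 (limma, adjusted p = 0.227).

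After scaling, Chrnb2 was the only subunit gene that was higher in every knockdown than in every control library of the somatodendritic compartment. As deposited it was at 15.5 to 17.6 FPKM against 8.84 to 11.2 FPKM, and Grik5 was apart too, at 26.8 to 35.3 FPKM against 20.8 to 23.1 FPKM. Of all genes tested 5.49% were apart in either direction after scaling. The change of Chrnb2 was 0.43 ± 0.20 (limma, adjusted p = 0.368), and it was between 0.34 and 0.63 under 19 alternatives. Adar, which overlaps Chrnb2 on the opposite strand in GENCODE M21, had a change of -0.67 ± 0.26 (limma, adjusted p = 0.272). Whether the counted Chrnb2 gene holds the shared bases was not tested.

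Gria2, at 26.2 to 59.5 FPKM with libraries 3 and 4 highest, had a change of 0.40 ± 0.24 (limma, adjusted p = 0.509). Grik5, at 26.8 to 35.3 FPKM against 20.8 to 23.1 FPKM in control, was apart in deposited FPKM but not after scaling (0.26 ± 0.17, limma, adjusted p = 0.539). For Grin1, Grin2b, Gria1 and Gria4 the changes lay between -0.16 and 0.16, each within 1 SE of 0. The lowest, median and highest knockdown library held 35.5, 51.0 and 100.2 FPKM of Grin1 and 26.7, 31.6 and 52.4 FPKM of Grin2b. Gria1 was at 13.3, 19.3 and 32.7 FPKM in the same order, Gria4 at 13.4, 18.1 and 21.8 FPKM and Gria3 at 2.13, 13.8 and 17.7 FPKM. All 5 ranges included control values. Grin3a was at 14.2, 16.3 and 23.6 FPKM, and the lowest of these lay above all but the highest control value. Grik2 was at 13.2, 14.7 and 42.3 FPKM and Grik3 at 11.4, 22.5 and 27.8 FPKM, again over the control values. Among nicotinic genes Chrna4 was at 24.5, 36.0 and 52.1 FPKM (-0.17 ± 0.25, limma, adjusted p = 0.811) and Chrna7 at 0, 7.67 and 10.2 FPKM. Neither AMPA, kainate, NMDA nor delta genes included a member with an unadjusted p under 0.05 in limma.

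Glycine receptor genes summed to 35.3 to 56.5 FPKM in knockdown and 57.6 to 66.0 FPKM in control somatodendritic libraries, without overlap. Without Glra1 the sums overlapped, at 32.2 to 41.6 FPKM in knockdown and 37.4 to 52.9 FPKM in control. All glycine genes made up 5.35% to 9.58% of receptor RNA in knockdown and 10.5% to 11.3% in control. The share of GABA-A genes was 25.7% to 37.0% against 37.6% to 40.3%, while their sums overlapped, at 155 to 243 FPKM against 202 to 244 FPKM. Glutamate receptor genes made up 42.3% to 56.7% against 39.4% to 41.9%, with sums of 249 to 373 FPKM against 224 to 250 FPKM. These sums are of deposited FPKM and carry no test. The scaling factors of this comparison were 0.905 to 0.969 in control and 0.993 to 1.15 in knockdown libraries. Divided by them, the GABA-A sums no longer overlapped, and the glutamate range in knockdown included every control sum. The shares were unchanged. Among interneuron markers Gad2, which makes GABA, fell by 1.26 on the log2 scale (limma, adjusted p = 0.0282), while the median change of the 10 tested was -0.01. The part of interneuron RNA in the levels of inhibitory receptor genes was not tested.

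Tdp-43 is known to bind RNA rich in UG repeats, and the transcripts of the receptor genes were searched for such runs. A run of at least 6 TG repeats (TGTGTGTGTGTG, searched on the transcript strand of GENCODE M21, GRCm38) was found in 8 of 58 subunit genes, 13.8%, against 7.06% of all protein-coding genes with a transcript. The median longest transcript was 4273.5 bases in the former and 2720 bases in the latter. The run of Grik4 lies in the 3′ and that of Gria2 in the 5′ untranslated region. Both are shown because they are short runs, with the repeat in capitals and 4 transcript bases on each side, 5′ to 3′, at chr3:80802763-80802774 and chr9:42519678-42519693, both on the minus strand:
Gria2: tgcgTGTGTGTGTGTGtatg
Grik4: caacTGTGTGTGTGTGTGTGtatg
Longer runs, of 17 to 26 repeats, lie in the 3′ untranslated regions of Chrna1, Grid1, Grik2, Grik3 and Grin2b.

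Of these 8 genes, 7 were tested in the somatodendritic comparison and none reached an unadjusted p under 0.05 in limma, where 13.8% of all genes did. Their changes included -0.59 for Grik4, -0.22 for Grik2, 0.09 for Grik3, 0.16 for Grin2b, 0.22 for Grid1 and 0.40 for Gria2. Glra1, Gabrg1 and Glrb, which had an unadjusted p under 0.05, hold no run of this length. A match is only a description of the letters in the annotated transcript, not a binding site.

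In the axonal compartment the question was the same, and the spread was wider. In limma none of 34 subunit genes tested passed at an adjusted p under 0.05 and none reached an unadjusted p under 0.05, where 0.401% and 8.60% of all 13958 genes did. Under the alternatives 0 passed and at most 2 had an unadjusted p under 0.05. The SE of a log2 change was 0.42 to 0.92, median 0.66, against a median of 0.41 in the somatodendritic compartment. Of the 34 genes 19 were lower and 15 higher, with 58.7% of all genes lower, but with FPKM as deposited 6 were lower and 28 higher, while the median of all tested genes moved from -0.17 to 0.23. The median change of the 34 genes moved alike, from -0.07 to 0.34. As deposited, 7 sensory neuron markers summed to 8.10 to 24.5 FPKM in axonal knockdown and 1.95 to 5.21 FPKM in axonal control libraries. Interneuron marker sums overlapped, at 5.35 to 205 and 31.8 to 69.1 FPKM. The part of such RNA in the receptor levels was not tested. Without the library labelled axonal knockdown 1, in which Tardbp was not lower than in control, 17 genes were lower and 17 higher, and again none reached an unadjusted p under 0.05. Leaving out other libraries turned the balance, with 11 lower and 23 higher without knockdown library 5, the shallowest, 11 and 22 without control library 4 and 12 and 21 without control library 3. With the replicate block 11 were lower and 23 higher. Glrb was at 7.34, 1.47, 16.9, 17.1, 0 and 4.04 FPKM in axonal knockdown libraries 1 to 6 and at 6.52 to 11.2 FPKM in control (log2 change -1.15 ± 0.72, limma, adjusted p = 0.713). Gria2 was at 8.79, 17.3, 47.1, 45.4, 5.84 and 12.9 FPKM against 3.70 to 9.004 FPKM (0.76 ± 0.58, limma, adjusted p = 0.744). In both genes libraries 3 and 4 held the highest values, and without them the change was -1.88 for Glrb and 0.15 for Gria2. Of 29 subunit genes tested without them 19 were lower. None passed and 1 had an unadjusted p under 0.05, where 0.358% and 9.33% of all genes did. The changes of the 4 AMPA genes lay between 0.24 and 0.76 with all libraries and between 0.13 and 0.33 without libraries 3 and 4, with none past the test. Gria3 was the most even of them, at 12.1, 15.2 and 24.1 FPKM in the lowest, median and highest axonal knockdown library. Gria1 was at 0, 20.1 and 30.2 FPKM and Gria4 at 4.02, 7.91 and 15.1 FPKM. Of the NMDA genes Grin1 spread from 0 over 15.6 to 109.9 FPKM and Grin2b from 7.66 over 20.6 to 44.5 FPKM. Chrna4 was at 8.29, 11.95 and 23.0 FPKM and Chrnb2 at 2.47, 4.40 and 14.6 FPKM.

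Whether the knockdown change differed between the compartments was tested on the axonal minus somatodendritic difference of libraries with the same condition and number, although same-numbered libraries did not deviate together. In limma none of 33 subunit genes and none of 12646 genes passed at an adjusted p under 0.05, and 0 subunit genes and 4.81% of all genes had an unadjusted p under 0.05. Under the alternatives at most 2 subunit genes did, as without the pairing by number, where 5.08% of all genes did. The difference was below 0 in 11 of the 33 genes and in 50.8% of all genes. Without the knockdown libraries numbered 3 and 4 of both compartments it was below 0 in 13 of 29 genes, and 0 had an unadjusted p under 0.05. With all libraries the smallest p was that of Glra1, with a somatodendritic change of -2.17 and an axonal one of -0.05 (difference 2.12 ± 1.04, limma, adjusted p = 0.991). Glra1 was at 2.03, 10.7, 19.8, 17.1, 14.8 and 3.29 FPKM in axonal knockdown libraries 1 to 6, which spanned the axonal control values of 1.24 to 16.2 FPKM.

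**Figure D5:**
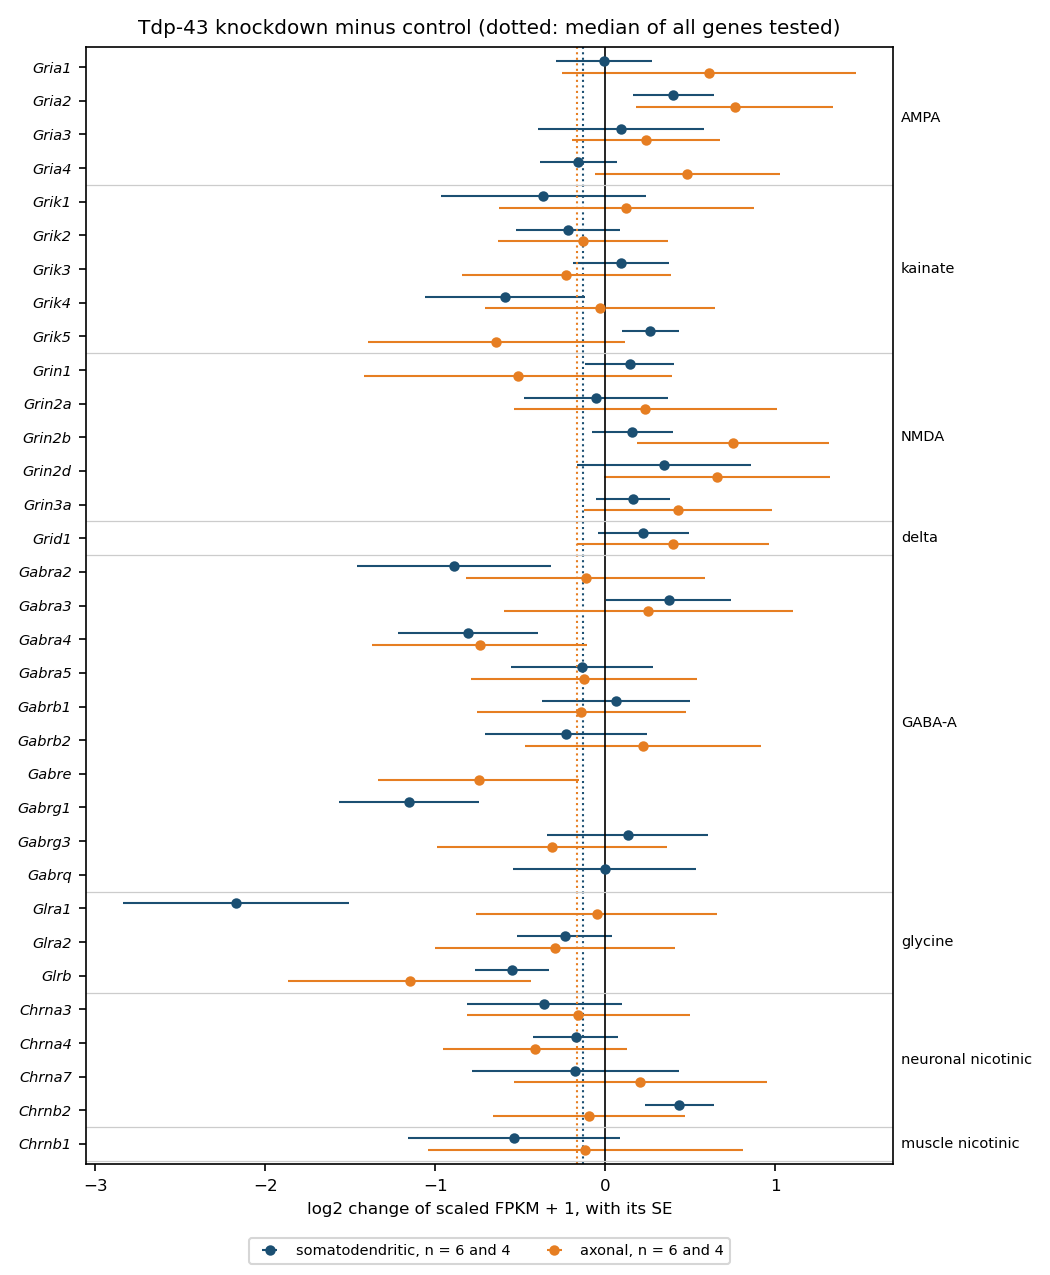
Knockdown minus control log2 change of scaled FPKM + 1 with its SE on the horizontal axis, for the tested subunit genes described here in the somatodendritic (blue) and axonal (orange) compartment, n = 6 and 4, with the median of all genes tested as a dotted line. Glra1, Gabrg1 and Glrb are more than 2 SE below 0 in the somatodendritic compartment, and axonal SEs are wider.

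Receptors work with auxiliary, scaffold and assembly proteins, and 7 lists of such genes were tested in the same fits. Between the compartments of control motoneurons 18 of 98 list genes passed and 87 were lower, where 6.90% of all genes passed and 53.0% were lower. In axons of control motoneurons, 2 of 19 auxiliary subunits of AMPA and kainate receptors fell and all 19 were lower. These were Cacng3 (log2 change -2.77, limma, adjusted p = 0.0155) and Cacng2 (-1.45, adjusted p = 0.0404), transmembrane proteins that traffic AMPA receptors. Of 20 excitatory scaffolds Dlg2 and Shank1 fell by 1.20 and 1.32, while Homer3 rose by 2.71 (limma, adjusted p = 0.00979), from at most 4.28 FPKM in somatodendritic to 10.7 to 14.3 FPKM in axonal libraries. Among 16 inhibitory scaffolds and assembly factors, Nlgn3 and Iqsec3 fell by 1.54 and 1.25. Of 9 editing and splicing factors, Rbfox3, Nova1 and Ptbp2 fell by 1.87, 1.19 and 1.18, and all 9 were lower. All 14 transmitter synthesis and transport genes were lower, and 5 of inhibitory transmission fell, with log2 changes of -1.70 for Slc6a5 and -1.71 for Slc32a1, transporters of GABA and glycine. Of 10 metabotropic receptor genes both GABA-B genes fell, Gabbr1 by 0.93 and Gabbr2 by 1.48. Of 10 nicotinic assembly and clustering genes Lrp4, the agrin receptor of the muscle endplate, rose by 2.22 (limma, adjusted p = 0.0103). Between the compartments of knockdown motoneurons 1 of 98 list genes passed, where 1.28% of all genes did. It was Dlgap3, which fell by 1.68 (limma, adjusted p = 0.0454).

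With knockdown in the somatodendritic compartment, 3 of 100 list genes passed, where 0.974% of all genes did. Dlgap3, a postsynaptic scaffold of excitatory synapses, rose by 1.25 (limma, adjusted p = 0.0156), from 10.2 to 13.5 FPKM in control to 24.3 to 45.7 FPKM in knockdown libraries. Gabbr1, a subunit of the metabotropic GABA-B receptor, rose by 0.49 (limma, adjusted p = 0.0460), from 155 to 161 FPKM to 237 to 272 FPKM. Gad2 fell, as given above, from 13.4 to 20.4 FPKM to 6.70 to 8.84 FPKM. In limma none of 98 list genes passed in the axonal knockdown comparison and 4 had an unadjusted p under 0.05, where 0.401% and 8.60% of all genes did.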

How the data were processed

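RNA from 20 libraries of cultured mouse motoneurons was amplified as whole transcriptome cDNA by PCR and sequenced. The deposited FPKM values, 1 file per library, were computed by the authors with Cufflinks 2.2.1 on GRCm38 (processing notes of the submitters), with a 95% interval. The aligner's version is not given in the sources used here. Amplified fragments are not independent molecules, so that intervals and implied fragments (FPKM over its SD, squared, the interval being FPKM ± 2 SD) cover counting error only. A gene at or under 0.001 FPKM is listed at 0.

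For each comparison the libraries in it were brought to a common scale (median of ratios), set to log2(FPKM + 1), filtered at a mean of 1 FPKM and fitted with limma 3.58.1 in R 4.3.3 (lmFit, eBayes with trend, two-sided, Benjamini-Hochberg over all genes). Tardbp was tested by exact permutation. Library numbers entered only the test between compartments. Scripts ran in Python 3.11.15 (pandas 2.3.3, scipy 1.17.1) and were tested on simulated data. Exons came from GENCODE M21. Values in each library are given for up to 3 genes per class with the highest means and for members with an adjusted p under 0.05, or an unadjusted p under 0.05 without overlap. List genes are named if they passed. Some genes that these rules name are not reported here. Members, lists and tests were chosen with earlier results of these data known, and further alternatives after seeing the data.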

Additional observations from a re-analysis of the deposited data

Results flagged for a closer look

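In 96 groups of libraries, 24 genes in 4 groups each, the highest or lowest library was compared with the gap that Dixon's criterion allows, and 8 exceeded it. Chance gives about 1 in 20. Axonal knockdown libraries gave Grin2d in library 4, at 10.5 FPKM against 0 to 2.02, 1 of the 2 libraries whose summed receptor RNA lay in the somatodendritic range. Axonal control libraries gave Grin1 in library 2, at 30.6 FPKM against 12.2 to 14.9, and Grin2d in library 3, listed at 0 against 0.424 to 0.482. In the somatodendritic control group, library 3 was high for Gabra3, at 31.9 FPKM against 11.98 to 13.3, and low for Gabrb2, at 2.09 FPKM against 8.10 to 9.11. In the somatodendritic knockdown group, Grik2 was at 42.3 FPKM in library 5 against 13.2 to 15.1, Grin3a at 23.6 FPKM in library 3 against 14.2 to 17.6, and Chrnb1 at 5.42 FPKM in library 1 against 0 to 1.10.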

How the results depend on the processing

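Alternatives were the scaling, pseudocount, filter on low values, array weights, a limit on depth and leaving out each library; leaving out axonal knockdown libraries 3 and 4 together was added after seeing the data. Counts of receptor genes stayed within 1.5 times the count given, or were 0 in both, in 160 of 186 cases. On FPKM as deposited 16 genes were past an adjusted p under 0.05 between control compartments (14.9% of all genes) and 25 past an unadjusted p (31.3%). The axonal knockdown comparison then gave 1 past an unadjusted p (9.83%). The test between compartments gave 2 (5.4%), as also at a pseudocount of 5 (5.62%). Array weights gave 7 for the somatodendritic knockdown comparison (unadjusted, 17.9% of all genes) and 1 between knockdown compartments (adjusted, 2.87%). Without axonal knockdown libraries 3 and 4 the counts between knockdown compartments were 6 (adjusted, 7.55% of all genes) and 18 (unadjusted, 23.3%). The axonal knockdown comparison gave 1 (unadjusted, 9.33%). Leaving out 1 library gave 2 to 7 (adjusted, 2.65% to 11.3% of all genes) between control compartments. Between knockdown compartments it gave 0 to 2 (adjusted, 0.171% to 3.13%) and 6 to 16 (unadjusted, 14% to 19.8%). It gave 0 to 2 (unadjusted, 6.27% to 9.76%) for knockdown in axons and 0 to 1 (unadjusted, 3.72% to 5.67%) for the difference between compartments. The cause was not tested.

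Same-numbered libraries did not deviate together (correlations of -0.053 to 0.032 in 4 control and -0.048 to 0.080 in 6 knockdown pairs, 1 library in each best with its own number). Few implied fragments per gene also lower such correlations, so the check cannot decide whether same numbers mark a shared culture. With the replicate block, 2 genes passed between control compartments (adjusted, 3.12% of all genes) and 2 in axonal knockdown (unadjusted, 9.7%). Without it, 2 genes did in the test between compartments (unadjusted, 5.08% of all genes). No subunit gene had passed at an adjusted p elsewhere. Over all genes the block took the count that passed from 134 to 18 for knockdown in the somatodendritic compartment and from 179 to 13 between knockdown compartments.

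Scaling all 20 libraries together raised the axonal percentages in control to 60.5 (AMPA), 79.2 (kainate), 52.3 (NMDA), 62.5 (delta), 34.1 (GABA-A) and 52.5 (glycine), with GABA-A still lowest of these. Without its highest member AMPA was at 47.2. Axonal Tardbp was 35.1% of control after median-of-ratios scaling, and 36.5% to 62.5% with 1 library left out. The axonal knockdown change of Glra1, -0.05, was 0.39 on FPKM as deposited, 0.022 with the block and -0.67 to 0.39 with 1 library left out. Axonal values of low genes rest on few implied fragments, and differences there were often not detectable.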
